A study of Arabidopsis thaliana with 8 samples.

Results

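The tonoplast intrinsic proteins (TIPs) are the aquaporins of the vacuolar membrane. The family was taken as the rows of the count table with the 10 gene codes of the Arabidopsis thaliana TIP genes, and all 10 were found among the 36799 genes of the table. In the names of the RefSeq annotation these are GAMMA-TIP1 (AT2G36830, TIP1;1), GAMMA-TIP2 (AT3G26520, TIP1;2), GAMMA-TIP3 (AT4G01470, TIP1;3), DELTA-TIP1 (AT3G16240, TIP2;1), DELTA-TIP2 (AT4G17340, TIP2;2), DELTA-TIP3 (AT5G47450, TIP2;3), ALPHA-TIP (AT1G73190, TIP3;1), BETA-TIP (AT1G17810, TIP3;2), AT2G25810 (TIP4;1) and AT3G47440 (TIP5;1). An expression level was measured for 8 of them, and 7 had counts high enough to be tested.

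RNA was sequenced from whole 10-day-old seedlings of enap1-1enap2 and of Col-0, the wild type in whose background the mutant was made. Seedlings spent 4 h in ½ MS medium with 25% PEG8000, a polymer that withholds water from the plant (Dehydration), or in ½ MS medium alone (Mock). The 4 groups, enap1-1enap2 Dehydration, Col-0 Dehydration, enap1-1enap2 Mock and Col-0 Mock, had 2 biological replicates each. enap1-1enap2 was obtained by crossing a CRISPR/Cas9 deletion line of ENAP1 with a T-DNA insertion line of its paralog ENAP2, and both genes encode histone-binding factors. No source says whether replicates came from separately grown plants, so p-values measure the spread between these samples only.

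A plant cell holds most of its water in the vacuole, and TIPs let water cross the tonoplast quickly when the osmotic balance of the cell changes. Some TIPs also conduct small solutes such as urea, ammonia and hydrogen peroxide. Members of the family are known for their organs: GAMMA-TIP1, GAMMA-TIP2 and DELTA-TIP1 are abundant in vegetative tissue, DELTA-TIP2, DELTA-TIP3 and AT2G25810 are best known from roots, ALPHA-TIP and BETA-TIP from the protein storage vacuoles of seeds, and GAMMA-TIP3 and AT3G47440 from pollen.

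The libraries held 24007691 to 48279415 counts on genes. Values per gene are given in CPM, counts scaled to a common library total with TMM factors, and the floor of 3 counts corresponded to between 0.0608 and 0.135 CPM. Such floors cover counting error only, and they take counts as independent although both mates of a read pair were counted. ENAP1 had 12.3 and 11.5 CPM in enap1-1enap2 Dehydration, 22.5 and 24.4 CPM for Col-0 under Dehydration, 3.81 and 5.11 CPM in enap1-1enap2 Mock and 13.9 and 17.3 CPM in Col-0 Mock, so transcripts of the gene were still counted in the mutant, and ENAP2 was also lower in the mutant (3.10 to 4.93 CPM in enap1-1enap2 and 7.22 to 9.32 CPM in Col-0 over all libraries). All 3 dehydration markers, RD29A, RD29B and RAB18, rose in both genotypes. The rise was larger in enap1-1enap2 by 0.64, 4.45 and 2.51 on the log2 scale (edgeR adjusted p = 0.0548, 0.00246 and 1.93e-06). Under mock all 3 were lower in enap1-1enap2 than in Col-0 (log2 fold changes -1.06, -3.50 and -1.31). Under dehydration these genotype differences were -0.42, 0.95 and 1.20. RD29B had 43.2 and 4.82 CPM in replicates 1 and 2 of Col-0 Mock. The root markers and leaf markers of a whole seedling were all present. Replicate 1 of Col-0 Mock stood apart: 113 of 21614 genes differed by at least 2-fold between the Col-0 Mock replicates, against 1 to 39 genes in the other groups. Its 5 seed markers summed to 48.1 CPM, of which the storage protein gene CRA1 made 40.2 CPM, whereas the other 3 Mock libraries had between 0.305 and 0.689 CPM. In the Dehydration libraries the sum was 14.4 to 32.3 CPM, nearly all of it from EM1, a late embryogenesis abundant protein gene (14.3 to 31.9 CPM). Results that rest on replicate 1 of Col-0 Mock are given with and without it.

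Levels were compared between genes as CPM per kilobase of exon. Summed over the family, the level was 1058 ± 19.3 in enap1-1enap2 Dehydration, 2019 ± 10.6 in Col-0 Dehydration, 1160 ± 11.9 in enap1-1enap2 Mock and 1247 ± 8.36 in Col-0 Mock (mean ± SD, n = 2 each). Dehydrated Col-0 seedlings therefore held the most TIP transcript of the 4 groups, and dehydrated enap1-1enap2 seedlings the least. As a share of all counts, TIP transcripts made 0.126% ± 0.000462 in enap1-1enap2 Dehydration, 0.237% ± 0.00513 in Col-0 Dehydration, 0.156% ± 0.00128 in enap1-1enap2 Mock and 0.168% ± 0.00985 in Col-0 Mock (SD, n = 2 each). The seedlings were sequenced in bulk, and in such samples fewer cells of a type and less RNA per cell cannot be told apart.

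**Figure D1:**
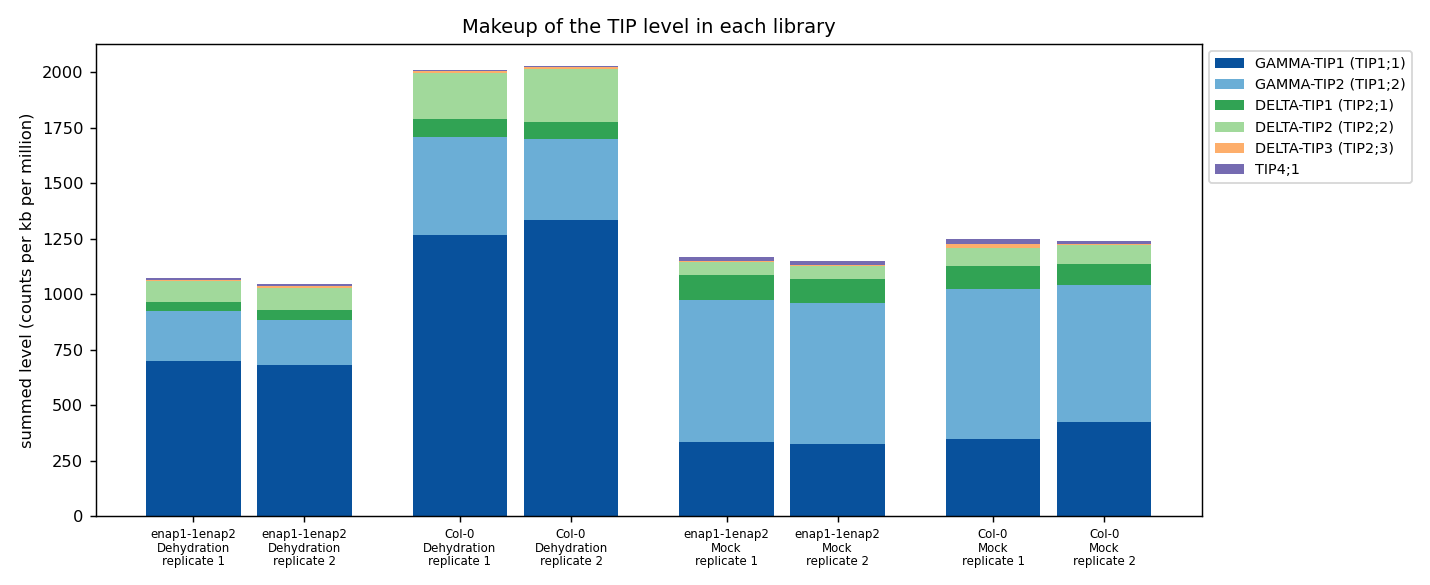
Summed level of the 6 TIP genes with the highest levels in each of the 8 libraries, in CPM per kilobase of exon on the vertical axis, with each gene as a coloured segment. The sum was 1044 and 1071 in the enap1-1enap2 Dehydration libraries and 2012 and 2027 in the Col-0 Dehydration libraries, and GAMMA-TIP1 was the largest segment in every Dehydration library and GAMMA-TIP2 in every Mock library.

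The order of the family changed with the treatment and not with the genotype. In both Dehydration groups the order from the highest level was GAMMA-TIP1, GAMMA-TIP2, DELTA-TIP2, DELTA-TIP1, DELTA-TIP3 and AT2G25810. In both Mock groups it was GAMMA-TIP2, GAMMA-TIP1, DELTA-TIP1, DELTA-TIP2, AT2G25810 and DELTA-TIP3. Neighbours in these orders had replicate ranges that did not overlap, with the exception of AT2G25810 and DELTA-TIP3 in Col-0 Mock. ALPHA-TIP and BETA-TIP followed with levels of at most 1.59 in any library, and their ranges overlapped in each group. The level of GAMMA-TIP1 was 3.11 and 3.34 times that of GAMMA-TIP2 in the enap1-1enap2 Dehydration libraries and 2.86 and 3.65 times in the Col-0 Dehydration libraries, against 0.526 and 0.506 times in enap1-1enap2 Mock and 0.517 and 0.680 times in Col-0 Mock. DELTA-TIP2 likewise stood at 2.22 and 2.28 times DELTA-TIP1 in enap1-1enap2 Dehydration and 2.51 and 3.05 times in Col-0 Dehydration, against 0.512 and 0.547 times in enap1-1enap2 Mock and 0.783 and 0.925 times in Col-0 Mock. In both genotypes the leading member of the gamma pair and of this delta pair was thus a different one under dehydration than under mock.

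Although the summed level under dehydration differed between the genotypes, the replicate ranges of the shares of GAMMA-TIP1, GAMMA-TIP2 and DELTA-TIP1 in it overlapped. GAMMA-TIP1 made 65.2% ± 0.218 of the summed level in enap1-1enap2 Dehydration and 64.4% ± 2.06 in Col-0 Dehydration, and GAMMA-TIP2 made 20.2% ± 1.12 of it in enap1-1enap2 Dehydration and 20.0% ± 2.80 in Col-0 Dehydration (SD, n = 2 each). For DELTA-TIP1 the shares were 4.09% ± 0.308 in enap1-1enap2 Dehydration and 3.93% ± 0.172 in Col-0 Dehydration. The ranges of DELTA-TIP2, DELTA-TIP3 and AT2G25810 did not overlap, and ALPHA-TIP and BETA-TIP, at or near the floor, were left out. DELTA-TIP2 made 9.23% ± 0.867 in enap1-1enap2 Dehydration and 10.9% ± 1.05 in Col-0 Dehydration, DELTA-TIP3 made 0.740% ± 0.112 in enap1-1enap2 Dehydration and 0.516% ± 0.0405 in Col-0 Dehydration, and AT2G25810 made 0.501% ± 0.0462 in enap1-1enap2 Dehydration and 0.188% ± 0.0899 in Col-0 Dehydration. No test was run on the shares. They are parts of 1 sum and so depend on one another, and ranges of 2 libraries can separate without a difference.

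To ask how the dehydration response of the family depends on ENAP1 and ENAP2, dehydration was compared with mock in each genotype, and the difference between these responses was tested as an interaction. A call required an unadjusted p under 0.01, a change of more than 1 on the log2 scale in either direction and an adjusted p under 0.05 (in the interaction, the adjusted p only), from edgeR's quasi-likelihood test and Benjamini-Hochberg adjustment over all 21614 genes tested. In enap1-1enap2, 1 of the 7 tested TIP genes was called higher, where 12.6% of all genes tested were, and 3 were called lower, where 14.1% of all genes were. In Col-0, 2 TIP genes were called higher against 10% of all genes, and 1 was called lower against 11.7%. At an adjusted p under 0.05 alone, 3 TIP genes were higher and 3 lower in enap1-1enap2, where 32.2% and 32.4% of all genes were, and 2 were higher and 4 lower in Col-0, where 29.7% and 30% were. The median log2 fold change of the 7 genes was -1.37 in enap1-1enap2 and -0.30 in Col-0, against -0.01 and -0.03 over all genes. These medians weigh all 7 genes alike, including ALPHA-TIP, at the edge of detection, and DELTA-TIP3, whose Col-0 value rests on replicate 1 of Col-0 Mock. The summed level went from 1160 in mock to 1058 in dehydration in enap1-1enap2 and from 1247 to 2019 in Col-0. The responses differed between the genotypes for 4 of the 7 genes, which all moved less upward or further downward in enap1-1enap2 (8.76% of all genes were called in this direction), and for 0 genes in the opposite direction (8.07% of all genes), with 0 also at an unadjusted p under 0.05 and by DESeq2. Without replicate 1 of Col-0 Mock the same 4 genes passed. Without it DELTA-TIP3 was also called higher in each genotype, which made 2 TIP genes in enap1-1enap2 and 3 in Col-0. The median difference was -0.69 over the 7 genes and 0.01 over all genes.

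**Figure D2:**
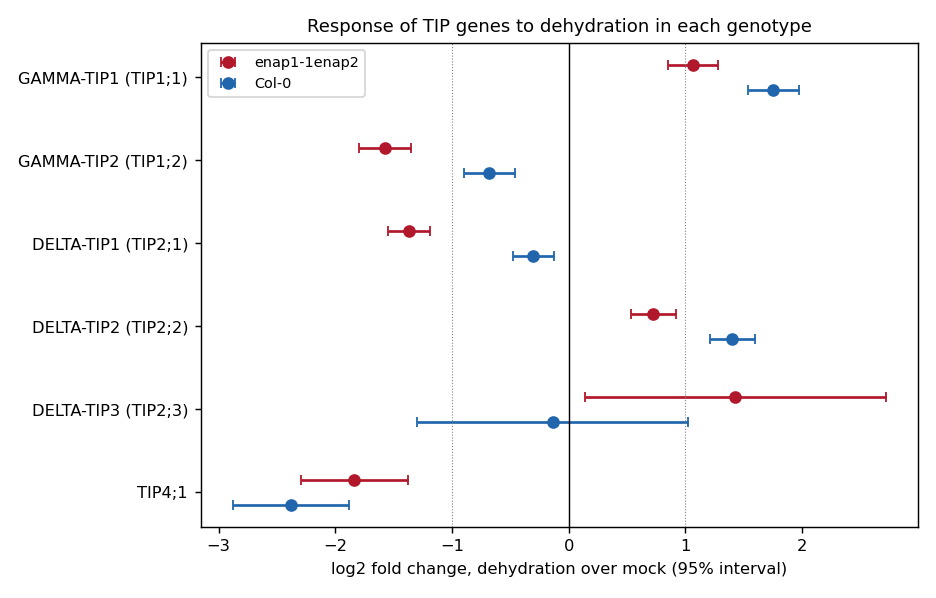
Log2 fold change of 6 TIP genes in dehydration over mock on the horizontal axis, in enap1-1enap2 (red, upper point of each pair) and Col-0 (blue, lower point), with 95% intervals from the edgeR fit and dotted lines at a 2-fold change. The enap1-1enap2 point lies left of the Col-0 point for GAMMA-TIP1, GAMMA-TIP2, DELTA-TIP1 and DELTA-TIP2, and right of it for DELTA-TIP3 and AT2G25810.

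The 4 genes whose response differed are the most abundant members of the family. GAMMA-TIP1 lies on the plus strand at chr2:15445294-15446621 of TAIR10 with 2 exons, GAMMA-TIP2 on the minus strand at chr3:9722443-9723904 with 2 exons, DELTA-TIP1 on the plus strand at chr3:5505360-5507050 with 3 exons and DELTA-TIP2 on the plus strand at chr4:9698940-9700472 with 2 exons. For these 4 members the 250 bases before the annotated start of the gene are shown, since they moved together in the interaction. The sequences are from the RefSeq genome TAIR10.1, whose exon coordinates equal those of the count table for all 10 TIP genes, and run 5′ to 3′ on the strand of the gene. They cover chr2:15445044-15445293 for GAMMA-TIP1, chr3:9723905-9724154 for GAMMA-TIP2, chr3:5505110-5505359 for DELTA-TIP1 and chr4:9698690-9698939 for DELTA-TIP2. Capitals mark the letters ACGTG, the core of the ABA-responsive element, and CCGAC, the core of the dehydration-responsive element, on either strand.
GAMMA-TIP1: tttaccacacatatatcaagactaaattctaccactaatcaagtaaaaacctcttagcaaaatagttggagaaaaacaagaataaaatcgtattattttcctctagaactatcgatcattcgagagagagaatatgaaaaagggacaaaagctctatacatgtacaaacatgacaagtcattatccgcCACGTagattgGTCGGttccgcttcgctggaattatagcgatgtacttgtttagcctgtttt
GAMMA-TIP2: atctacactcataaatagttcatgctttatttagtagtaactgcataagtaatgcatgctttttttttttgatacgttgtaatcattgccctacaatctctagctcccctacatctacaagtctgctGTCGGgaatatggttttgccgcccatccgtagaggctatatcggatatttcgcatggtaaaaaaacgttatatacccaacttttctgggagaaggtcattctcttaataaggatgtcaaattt
DELTA-TIP1: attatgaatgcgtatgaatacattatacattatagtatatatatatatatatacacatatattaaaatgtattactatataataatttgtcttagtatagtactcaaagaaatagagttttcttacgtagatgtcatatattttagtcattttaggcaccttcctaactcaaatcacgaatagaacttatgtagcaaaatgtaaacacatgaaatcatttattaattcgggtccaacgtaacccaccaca
DELTA-TIP2: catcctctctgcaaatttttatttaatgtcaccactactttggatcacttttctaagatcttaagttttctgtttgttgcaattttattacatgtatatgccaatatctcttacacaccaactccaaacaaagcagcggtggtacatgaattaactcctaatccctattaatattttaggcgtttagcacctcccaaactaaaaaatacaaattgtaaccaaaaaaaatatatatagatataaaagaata

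ACGTG was found in the window of GAMMA-TIP1 alone of these 4 genes, 62 bases before the start, and in 21.0% of the windows of the same length before 36630 genes. CCGAC was found before GAMMA-TIP1 (at 51 bases) and GAMMA-TIP2 (at 123 bases) and in 11.9% of all windows. CACGTG, the G-box, which holds ACGTG on both strands, was found before none of the 10 TIP genes and in 5.49% of all windows. The windows of DELTA-TIP1 and DELTA-TIP2 held none of these letters. Of the other 6 members, ALPHA-TIP and AT3G47440 held ACGTG, at 79 and 151 bases before the start. These are matches of letters in a short window and do not show binding.

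GAMMA-TIP1, a water channel of the vacuole in vegetative tissue, rose in both genotypes and rose less in enap1-1enap2. Its level was 700.0 and 679 in dehydrated enap1-1enap2 seedlings, 1267 and 1335 in dehydrated Col-0 seedlings, 336 and 323 in enap1-1enap2 Mock and 349 and 422 in Col-0 Mock, in CPM per kilobase. The Dehydration libraries lay above the Mock libraries in each genotype, and the groups did not overlap. The level in dehydration was 2.09 times that in mock in enap1-1enap2 (log2 fold change 1.07 ± 0.10 SE, adjusted p = 1.75e-07) and 3.38 times in Col-0 (1.75 ± 0.10, adjusted p = 8.74e-10). The difference between these responses was -0.69 ± 0.14 on the log2 scale (adjusted p = 0.00400). In enap1-1enap2 the log2 fold change was close to the limit of 1, and at 0.90 with upper quartile scaling or library size alone it was not called.

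GAMMA-TIP2, the closest relative of GAMMA-TIP1, moved in the opposite direction. Its level was 225 and 203 in dehydrated enap1-1enap2 seedlings, 443 and 366 in dehydrated Col-0 seedlings, 638 and 638 in enap1-1enap2 Mock and 675 and 621 in Col-0 Mock. The genotypes overlapped in Mock and were separate in Dehydration, where all libraries lay under those of Mock. In dehydration it stood at 0.336 times the mock level in enap1-1enap2 (log2 fold change -1.58 ± 0.10 SE, adjusted p = 2.78e-09) and at 0.624 times in Col-0 (-0.68 ± 0.10, adjusted p = 3.50e-05), where the change was under the fold limit. The responses differed by -0.89 ± 0.15 (adjusted p = 0.000744). The proteins that the 2 genes encode share 215 of 251 aligned positions (85.7%), but the longest run of identical bases between their exons was 29 bases, and 0% and 0.488% of the 31-base stretches of their exons occur again in the genome.

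DELTA-TIP1, which conducts ammonia as well as water, fell further in the mutant. Its level was 41.5 and 45.0 in dehydrated enap1-1enap2 seedlings, 81.5 and 77.2 in dehydrated Col-0 seedlings, 114 and 109 in enap1-1enap2 Mock and 103 and 92.9 in Col-0 Mock. All 4 groups were separate, with enap1-1enap2 the lower genotype in dehydration and the higher one in mock. The gene reached 0.388 times its mock level in enap1-1enap2 (log2 fold change -1.37 ± 0.09 SE, adjusted p = 1.38e-09) and 0.812 times in Col-0 (-0.30 ± 0.08, adjusted p = 0.00594), and without replicate 2 of Col-0 Dehydration the Col-0 change no longer passed (-0.26, adjusted p = 0.0603). At -1.07 ± 0.12 its interaction was the largest of the 4 (adjusted p = 4.87e-05). DELTA-TIP1 shares 120 of its 1189 exon bases with AT3G16250 and 46 with AT3G03265, both on the opposite strand, and reads on such bases are left out by the counting.

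DELTA-TIP2, which is known from the root, rose in Col-0 and rose less in the mutant. Its level was 92.3 and 103 in dehydrated enap1-1enap2 seedlings, 204 and 236 in dehydrated Col-0 seedlings, 58.4 and 59.6 in enap1-1enap2 Mock and 80.3 and 85.9 in Col-0 Mock. No group overlapped another. The level in dehydration was 1.65 times the mock level in enap1-1enap2 (log2 fold change 0.73 ± 0.09 SE, adjusted p = 3.86e-06), under the fold limit, and 2.65 times in Col-0 (1.40 ± 0.09, adjusted p = 2.78e-09). The responses differed by -0.68 ± 0.13 (adjusted p = 0.00212).

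**Figure D3:**
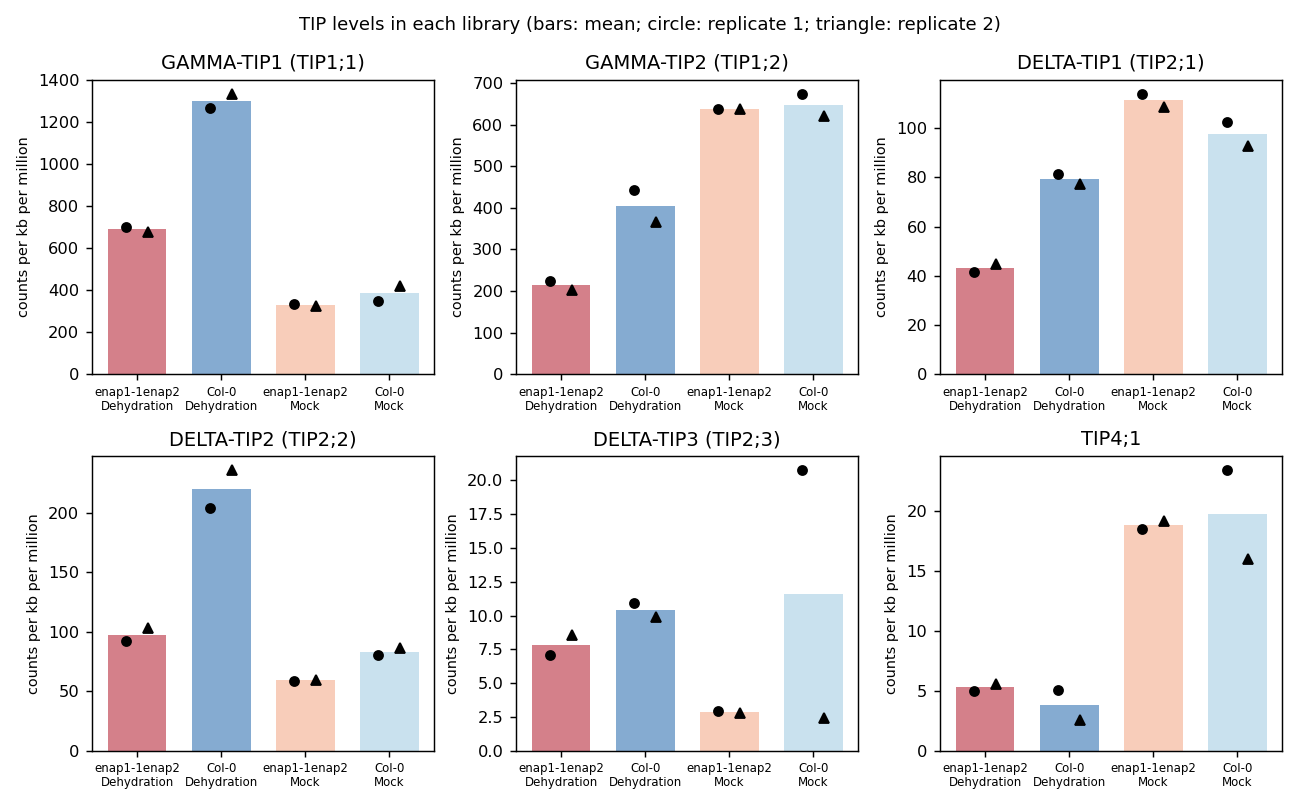
Level of 6 TIP genes in CPM per kilobase of exon, each on its own vertical axis from 0, in the 4 groups. Bars are means, circles replicate 1 and triangles replicate 2. GAMMA-TIP1 and DELTA-TIP2 were highest in Col-0 Dehydration, GAMMA-TIP2 and DELTA-TIP1 were lowest in enap1-1enap2 Dehydration, and the Col-0 Mock replicates of DELTA-TIP3 lay at 20.8 and 2.39.

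Compared directly under dehydration, these 4 genes were lower in enap1-1enap2 than in Col-0 at an adjusted p under 0.05, as were 8.14% of all genes, and 1 of them was also past the fold limit, as were 1.4% of all genes. None of the 7 tested TIP genes was higher in enap1-1enap2 at either limit (6.56% and 1.01% of all genes were), with 0 also at an unadjusted p under 0.05 and by DESeq2. GAMMA-TIP1 in dehydrated enap1-1enap2 stood at 0.530 times its Col-0 level (log2 fold change -0.92 ± 0.10 SE, adjusted p = 3.15e-05), GAMMA-TIP2 at 0.530 times (-0.92 ± 0.10, adjusted p = 3.83e-05) and DELTA-TIP1 at 0.545 times (-0.88 ± 0.09, adjusted p = 1.16e-05). DELTA-TIP2 had the largest difference, at 0.443 times (-1.17 ± 0.09, adjusted p = 1.85e-06), and was the gene called by all limits. Without replicate 2 of Col-0 Dehydration GAMMA-TIP2 was called too (-1.05). The median log2 fold change was -0.92 over the 7 genes and 0.01 over all genes.

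Leaf markers moved with this comparison in both directions. The 5 leaf markers summed to 8931 and 9392 CPM in enap1-1enap2 Dehydration and 11299 and 10912 CPM in Col-0 Dehydration. LHCB1.1, a chlorophyll-binding antenna gene, was called lower, as were 1.4% of all genes. Its log2 fold change of -1.24 was larger in size than that of any of the 4 TIP genes. At an adjusted p under 0.05 alone, RBCS1A was also lower (-0.44) and LHCB2.1 was higher (0.39), where 8.14% and 6.56% of all genes were. The 7 root markers summed to 1374 and 1070 CPM in enap1-1enap2 Dehydration and 1332 and 1207 CPM in Col-0 Dehydration. By edgeR or DESeq2 0 of the 7 were called between the genotypes, where edgeR called 1.4% of all genes lower and 1.01% higher. At an adjusted p under 0.05 alone, 0 were lower by edgeR and 1 by DESeq2, and 1 was lower at an unadjusted edgeR p under 0.05. By edgeR 8.14% of all genes were lower at that adjusted limit, so 0 of 7 does not show that root content was equal. The part of these markers in the TIP difference was not tested.

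Under mock, the abundant members differed little between the genotypes. DELTA-TIP2 was lower in enap1-1enap2 at 0.709 times the Col-0 level (log2 fold change -0.50 ± 0.09 SE, edgeR adjusted p = 0.00394), and this did not pass without replicate 1 (-0.48, adjusted p = 0.0938) or without replicate 2 (-0.51, adjusted p = 0.0700) of enap1-1enap2 Mock. The difference was -0.23 for GAMMA-TIP1 (95% interval -0.44 to -0.01, adjusted p = 0.199), -0.02 for GAMMA-TIP2 (-0.24 to 0.20, adjusted p = 0.937) and 0.19 for DELTA-TIP1 (0.01 to 0.37, adjusted p = 0.197). Without replicate 1 of Col-0 Mock, GAMMA-TIP1 passed (-0.36, adjusted p = 0.00274). At an adjusted p under 0.05 alone, 2 of the 7 TIP genes were lower in enap1-1enap2 Mock, where 3.7% of all genes were, and 0 were higher, where 3.47% were (1 at an unadjusted p under 0.05, DELTA-TIP1, and 0 by DESeq2). At all limits 1 was lower, ALPHA-TIP, where 0.953% of all genes were (0 without replicate 1 of Col-0 Mock), and 0 were higher, where 0.389% were. The median log2 fold change was -0.23 over the 7 genes and -0.01 over all genes.

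**Figure D4:**
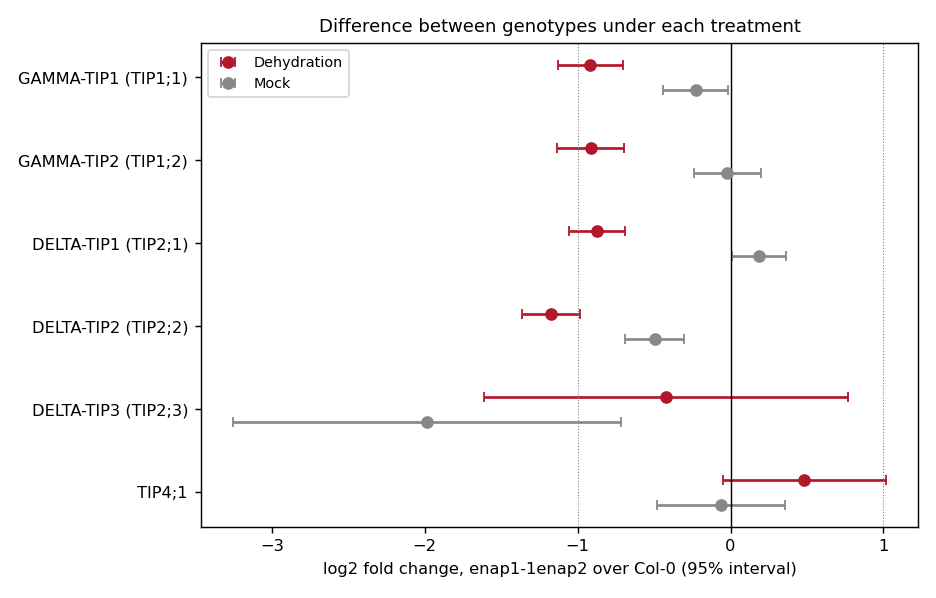
Log2 fold change of 6 TIP genes in enap1-1enap2 over Col-0 on the horizontal axis, under dehydration (red, upper point of each pair) and mock (grey, lower point), with 95% intervals from the edgeR fit and dotted lines at a 2-fold change. GAMMA-TIP1, GAMMA-TIP2, DELTA-TIP1 and DELTA-TIP2 lie between -1.17 and -0.88 under dehydration and between -0.50 and 0.19 under mock.

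AT2G25810 (TIP4;1), a root member that also conducts urea, lies on the plus strand at chr2:11012499-11014171 with 3 exons and fell in both genotypes. Its level was 5.02 and 5.57 in dehydrated enap1-1enap2 seedlings, 5.07 and 2.53 in dehydrated Col-0 seedlings, 18.5 and 19.2 in enap1-1enap2 Mock and 23.4 and 16.0 in Col-0 Mock. The Dehydration libraries lay under all Mock libraries, while the genotypes overlapped within each treatment. It stood at 0.280 times the mock level in enap1-1enap2 (log2 fold change -1.84 ± 0.22 SE, adjusted p = 2.00e-06) and at 0.192 times in Col-0 (-2.38 ± 0.23, adjusted p = 3.29e-07). The difference between the responses was 0.54 with a 95% interval of -0.13 to 1.22 (adjusted p = 0.271), and the difference between the genotypes under dehydration was 0.48 (-0.05 to 1.02, adjusted p = 0.227). Without replicate 1 of Col-0 Dehydration both passed, at 1.12 (adjusted p = 0.0317) and 1.06 (adjusted p = 0.0267). The root markers fell beside this gene, with 6 of 7 called lower in each genotype (14.1% of all genes in enap1-1enap2 and 11.7% in Col-0). Their sum was 1070 to 1374 CPM in the Dehydration libraries and 2830 to 3175 CPM in the Mock libraries. Of the other members known from roots, DELTA-TIP2 rose in both genotypes while these markers fell. DELTA-TIP3 changed by 1.43 in enap1-1enap2 and -0.14 in Col-0 on the log2 scale. Whether the fall of the root markers has a part in that of AT2G25810 was not tested.

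DELTA-TIP3, the root-expressed member closest to DELTA-TIP2 in protein sequence (92.0% identity over 250 positions), lies on the minus strand at chr5:19248249-19249622 with 2 exons. Its level was 7.07 and 8.55 in dehydrated enap1-1enap2 seedlings, 10.96 and 9.88 in dehydrated Col-0 seedlings, 2.95 and 2.81 in enap1-1enap2 Mock and 20.8 and 2.39 in Col-0 Mock. The Dehydration libraries were above 3 of the 4 Mock libraries and under replicate 1 of Col-0 Mock, the library with high seed markers, which held 930 counts of the gene. In enap1-1enap2 the gene was higher in dehydration by 1.43 ± 0.61 on the log2 scale with an edgeR adjusted p of 0.0493. This was lost in 11 of 16 alternatives, DESeq2 among them (adjusted p = 0.191), and kept in 5. The value ranged from 1.27 to 1.56 over these alternatives. In the edgeR fit on the 4 enap1-1enap2 libraries alone it was 1.43 (adjusted p = 8.32e-06). Without replicate 1 of Col-0 Mock it was also 1.43. In Col-0 the change was -0.14 ± 0.55 (adjusted p = 0.846). Without replicate 1 of Col-0 Mock it was 2.12 (adjusted p = 3.83e-07), and without replicate 2 it was -1.002 (adjusted p = 4.70e-05). The difference between the responses was 1.57 ± 0.81 (adjusted p = 0.212), and -0.69 (adjusted p = 0.103) without replicate 1 of Col-0 Mock. Under mock the genotypes differed by -1.99 ± 0.59 (adjusted p = 0.0571), and by 0.27 (adjusted p = 0.548) without replicate 1 of Col-0 Mock. Under dehydration they differed by -0.42 with a 95% interval of -1.61 to 0.77 (adjusted p = 0.671).

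ALPHA-TIP and BETA-TIP, the seed members, were at the edge of detection. ALPHA-TIP (chr1:27521944-27523332, plus strand, 3 exons) had 0 and 0 counts in dehydrated enap1-1enap2 seedlings, 6 and 2 in dehydrated Col-0 seedlings, 2 and 2 in enap1-1enap2 Mock and 72 and 16 in Col-0 Mock. BETA-TIP (chr1:6130025-6131627, plus strand, 3 exons) had 0 and 2 counts in dehydrated enap1-1enap2 seedlings, 0 and 3 in dehydrated Col-0 seedlings, 0 and 2 in enap1-1enap2 Mock and 24 and 10 in Col-0 Mock, and was not tested. For both genes the highest count was in replicate 1 of Col-0 Mock, beside the seed markers that were high in the same library, and the part of these was not tested. Both Col-0 Mock libraries lay above both enap1-1enap2 Mock libraries. Per unit of library size, summed ALPHA-TIP counts in enap1-1enap2 Mock were 0.0607 times those in Col-0 Mock (exact 95% interval 0.0162 to 0.161, for counting error only) and 0.188 times those of replicate 2 of Col-0 Mock alone (0.0457 to 0.583). The exact intervals for this gene take counts as independent. Both mates of a read pair were counted, so they are too narrow even for counting error. ALPHA-TIP was called under mock (log2 fold change -4.06 ± 1.05 SE, edgeR adjusted p = 0.0317). The call was lost without replicate 1 (adjusted p = 0.293) or replicate 2 (adjusted p = 0.217) of enap1-1enap2 Mock, and without replicate 1 of Col-0 Mock the gene no longer passed the filter on low counts. In Col-0 it was lower in dehydration at an edgeR adjusted p of 0.0280 but was not called, and that adjusted p was 0.0542 without replicate 1 and 0.186 without replicate 2 of Col-0 Dehydration. Its summed counts in Col-0 Dehydration were 0.174 times those in Col-0 Mock (exact 95% interval 0.0729 to 0.359) but 0.539 times those of replicate 2 of Col-0 Mock alone (0.200 to 1.34). ALPHA-TIP shares 290 of 1179 exon bases with AT1G73200, and BETA-TIP shares 536 of 1173 with AT1G05333 and 91 with AT1G17820, all on the opposite strand, where reads are not counted.

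GAMMA-TIP3 (chr4:624786-625885, minus strand, 1 exon) and AT3G47440 (chr3:17481996-17483158, plus strand, 3 exons), the pollen members, had 0 counts in all 8 libraries. A count of 0 allows up to 3 independent counts, between 0.0608 and 0.135 CPM per library, so they were not detectable at this depth. Both mates of a read pair were counted, so the limits are higher than these values. The 4 pollen markers summed to between 0.853 and 2.11 CPM.

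Across the 45 pairs of TIP proteins identity ranged from 39.9% to 92.0% with a median of 56.0%, and each protein holds 2 NPA motifs, the signature of the aquaporin pore. The closest relatives did not always share a response: GAMMA-TIP1 and GAMMA-TIP2 moved apart under dehydration, while DELTA-TIP2 ran with GAMMA-TIP1 and DELTA-TIP1 with GAMMA-TIP2. Over the 8 libraries, which share the 4 groups, Pearson's r of log2(CPM + 1) was 0.96 between GAMMA-TIP1 and DELTA-TIP2, 0.97 between GAMMA-TIP2 and DELTA-TIP1 and -0.58 between GAMMA-TIP1 and GAMMA-TIP2, as a description.

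Outside the family, the genes with the most similar pattern among the 15435 tested genes that averaged 5 CPM or more were AT5G55530 (r = 0.998) and the proline transporter gene ProT3 (0.996) for GAMMA-TIP1, AT1G62500 (0.993) and ERD3 (0.992) for GAMMA-TIP2, and AT1G52200 (0.996) and FTSH12 (0.990) for DELTA-TIP1. For DELTA-TIP2 they were RD28, a plasma membrane aquaporin (0.996), and NAC001 (0.988), and for AT2G25810 P4H2 (0.994) and NPR4 (0.993). DELTA-TIP3 was most like AT5G51630 (0.967) and SEN1 (0.964), and ALPHA-TIP most like AT1G12080 (0.982) and AT1G29520 (0.976). Without replicate 1 of Col-0 Mock, a check added after the data were seen, r was 0.952 and 0.959 for the genes named with DELTA-TIP3, 0.810 and 0.850 for those named with ALPHA-TIP, and 0.988 or higher for the others, over 7 libraries.

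The other aquaporins and transporters of the tonoplast give the setting of these changes. Of 13 plasma membrane aquaporins (PIPs), all tested, 5 were called higher and 2 lower in enap1-1enap2, where 12.6% and 14.1% of all genes were, and 8 higher and 2 lower in Col-0, where 10% and 11.7% of all genes were. In the interaction 4 PIPs were called, all lower in enap1-1enap2 (8.76% of all genes), and 3 were called lower in enap1-1enap2 than in Col-0 under dehydration (1.4% of all genes). Among the 8 tested of 9 NOD26-like aquaporins, 3 were called lower in enap1-1enap2 (14.1% of all genes) and 2 in Col-0 (11.7%), with 0 in the interaction (1 lower at an unadjusted p under 0.05, and 0 by DESeq2). Of the 3 small basic aquaporins 0 were called in any comparison by edgeR or DESeq2. At an adjusted p under 0.05 alone, by either method, 1 was higher and 1 lower under dehydration in each genotype (29.7% to 32.4% of all genes by edgeR). By the same limit 1 was higher in enap1-1enap2 than in Col-0 under dehydration (6.56% of all genes by edgeR). Of 23 other tonoplast transport genes, 7 were called higher and 2 lower in enap1-1enap2 (12.6% and 14.1% of all genes), 5 higher and 2 lower in Col-0 (10% and 11.7%), and 1 higher and 5 lower in the interaction (8.07% and 8.76%). Their largest rises were in TDT, the vacuolar malate transporter (log2 fold change 2.89 ± 0.11 SE in enap1-1enap2 and 2.89 ± 0.11 in Col-0), and CAX3, a proton-coupled calcium exchanger (2.25 ± 0.10 in enap1-1enap2 and 1.86 ± 0.10 in Col-0). Their largest falls were in the sugar transporters SWEET16 (-1.87 ± 0.23 in enap1-1enap2 and -1.32 ± 0.23 in Col-0) and TMT1 (-1.59 ± 0.10 in enap1-1enap2 and -1.05 ± 0.10 in Col-0).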

How the data were processed

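Counts per gene were deposited by the authors without normalization. Per the submitters' processing notes and the study's methods, reads were trimmed with Trim Galore 0.6.7, mapped to TAIR10 and counted with featureCounts (Subread 2.0.1). The methods name bowtie2, whereas the alignment files listed in the header of the deposited counts carry the default names of STAR. The header names Araport11 exons, no strand setting, and no option for paired reads or for reads on overlapping genes, so mates were counted singly and reads on several genes or places were left out. Between 69.4% and 74.0% of nonzero counts were even. The kit does not mark strand.

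Counts were analysed with edgeR 4.0.16 in R 4.3.3: filterByExpr by group (21614 genes), TMM factors, 1 mean per group and the quasi-likelihood test on all 8 libraries, with Benjamini-Hochberg adjustment over all genes tested. SEs were obtained from the F statistic and the fold change. The steps were tested on simulated data. The authors used DESeq2 1.32.0, and DESeq2 1.42.0 was an alternative here, beside other scalings, filters, fits on 4 libraries, a stricter fold limit, a block on the replicate number and fits without 1 library each. Gene names and sequences came from RefSeq TAIR10.1, which holds 36632 of the 36799 genes by locus tag. Coding sequences were translated and aligned globally (BLOSUM62) in Python 3.11.15 with Biopython 1.88, with matplotlib 3.10.9 for the figures.

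The TIP genes, marker lists and other gene lists were chosen with earlier results of these data known. Named were all TIP genes, the 2 genes most correlated with each tested TIP gene (mean of at least 5 CPM), and the 2 largest called rises and falls in each genotype among tonoplast transport genes. ENAP1, ENAP2, dehydration markers and CRA1 were named as checks.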

Additional observations from a re-analysis of the deposited data

Results flagged for a closer look

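The response to dehydration differed between the genotypes by the interaction test of edgeR in 4 TIP genes, given as enap1-1enap2 minus Col-0 on the log2 scale with the edgeR adjusted p. The difference was -0.69 for GAMMA-TIP1 (adjusted p = 0.00400), -0.89 for GAMMA-TIP2 (adjusted p = 0.000744), -1.07 for DELTA-TIP1 (adjusted p = 4.87e-05) and -0.68 for DELTA-TIP2 (adjusted p = 0.00212). In the 15 alternatives run for each gene, the highest adjusted p was 0.0398 for GAMMA-TIP1, 0.00978 for GAMMA-TIP2, 0.00145 for DELTA-TIP1 and 0.0207 for DELTA-TIP2. Groups of 2 libraries are too small for a test of outlying samples.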

How the results depend on the processing

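Over 35 log2 fold changes of single TIP genes and 537 values under other settings, 502 kept their direction and their side of an adjusted p of 0.05, 18 lost significance, 11 gained it and 6 changed sign. DESeq2 gave no adjusted p for ALPHA-TIP in 3 comparisons, which are not counted here. The 6 changes of sign were all among differences that did not pass the test in the main fit. For DELTA-TIP3 in Col-0 the value was 0.12 with the replicate block. Over fits without a library it ranged from -1.002, without replicate 2 of Col-0 Mock, to 2.12, without replicate 1. The interaction of DELTA-TIP3 ranged from -0.69 to 2.43, and its genotype difference under mock from -2.85 to 0.27. The difference under mock ranged from -0.088 to 0.038 for GAMMA-TIP2 and from -0.32 to 0.23 for AT2G25810.

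Of the counts of TIP genes called, that of genes higher in enap1-1enap2 (1) was 0 with upper quartile scaling, with library size alone and at a log2 fold change over 1.5, and 2 when all genes with at least 1 count were kept, when 4 libraries were fitted, and 1 to 2 without a library. The count of genes higher in Col-0 (2) was 1 at a log2 fold change over 1.5. The count lower in Col-0 (1) was 2 with all genes kept and 1 to 3 without a library. The count of larger responses in enap1-1enap2 (0) was 1 with all genes kept and 0 to 1 without a library. Under mock the count lower in enap1-1enap2 (1) was 2 with all genes kept, 0 with a CPM of at least 1 in 2 libraries, 0 with DESeq2, where ALPHA-TIP has no adjusted p, and 0 to 2 without a library. Under dehydration the count lower in enap1-1enap2 (1) was 2 with all genes kept, 0 at a log2 fold change over 1.5 and 1 to 2 without a library, and the count higher (0) was 0 to 1 without a library. Over all genes, the dehydration calls in both directions were 5763 in enap1-1enap2 and 4699 in Col-0 of 21614 genes. With all genes kept they were 5861 and 4846 of 27687. At a log2 fold change over 1.5 they were 3335 and 2778 of 21614. The genotype calls under mock and under dehydration were 290 and 520 in the main fit. With all genes kept they were 415 and 670, and at a log2 fold change over 1.5 they were 168 and 197. The cause was not tested. A fit without a library leaves a group with 1 sample, which is assumed to vary like the other groups.

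Library size alone moved the median of all genes by dehydration to -0.17 in enap1-1enap2 and -0.21 in Col-0, and the share of called genes that were higher to 36.4% from 47.1% in enap1-1enap2 and to 33.5% from 46.1% in Col-0. Upper quartile scaling gave 36.5% and 33.4%. Levels moved by more than 1 SD with library size alone in 11 of 31 cases, and the order of the levels without division by exon length was the same in 31 of 31.

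The replicate numbers did not pair the samples: replicate differences of the 4 groups correlated between -0.06 and 0.08. With the replicate block no count of TIP genes changed, and the calls over all genes were 5672 in enap1-1enap2, 4609 in Col-0 and 3379 in the interaction, against 5763, 4699 and 3639 without it.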
